A study of Mus musculus with 96 samples.

Results

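Knockout-only H3K27ac intervals are regions that carried a called H3K27ac peak in Rybp-/- mouse embryonic stem cells (ESCs) and none in Rybp+/+ ESCs. They were taken from the Rybp-/- peak list as intervals of at least 800 bp that shared no base with any interval of the Rybp+/+ list, which gave 1310 of the 62669 H3K27ac intervals of Rybp-/- ESCs. The regions were chosen by their H3K27ac calls and widths in both lists, so their H3K27ac values are a description and carry no test. They were set beside the 23305 Rybp-/- intervals of the same minimum width that overlapped a Rybp+/+ interval (shared intervals), and beside the 1347 Rybp+/+ intervals of at least 800 bp that shared no base with the Rybp-/- list (wild-type-only intervals).

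The cells were R7.15, a Rybp-floxed line in which 5 µM 4-hydroxytamoxifen for 4 days gave the Rybp-/- group, and the Rybp+/+ group was the same floxed line without it. R7.15 cells of other samples are labelled as carrying Rosa26::CreERT2, and no group received 4-hydroxytamoxifen with an intact Rybp gene, so loss of Rybp and exposure to the agent cannot be told apart. ChIP-seq peaks of H3K27ac, H3K4me3, WDR5 and STAT3 came from both genotypes, and RNA-seq from 2 libraries of each. A second depletion, by a short hairpin against Rybp (shRybp) beside an empty vector (shEV), was sequenced in R1 ESCs with 2 libraries each, and RING1B and doxycycline-induced (Tet.Rybp.Stat3) STAT3 peaks were also from R1 ESCs.

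H3K27ac, acetylation of lysine 27 on histone H3, marks active promoters and enhancers. RYBP is a subunit of non-canonical Polycomb repressive complex 1, whose catalytic subunit RING1B ubiquitinates histone H2A at silenced developmental genes. H3K4me3 marks promoters, WDR5 is a core subunit of the complexes that write it, and STAT3 transmits the LIF signal that keeps mouse ESCs self-renewing.

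Sequence around the summit is shown for the 3 knockout-only intervals with the highest H3K27ac fold enrichment, for intervals nearest to 3 genes of the largest rises and 2 of the largest falls, and for the strongest interval in the cluster downstream of Rybp. Each run has 200 bases of the plus strand of mm9, and capitals mark matches to the searched factor motifs described with the base composition. None of the 9 windows overlapped an annotated exon, and the Dab2ip, Ptgs1 and Rybp windows held no match.
Dab2ip intron chr2:35451024-35451223: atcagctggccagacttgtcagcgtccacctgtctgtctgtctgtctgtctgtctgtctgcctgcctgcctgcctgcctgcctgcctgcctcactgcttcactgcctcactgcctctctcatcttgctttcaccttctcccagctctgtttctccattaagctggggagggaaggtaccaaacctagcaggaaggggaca
Eml1 intron chr12:109749582-109749781: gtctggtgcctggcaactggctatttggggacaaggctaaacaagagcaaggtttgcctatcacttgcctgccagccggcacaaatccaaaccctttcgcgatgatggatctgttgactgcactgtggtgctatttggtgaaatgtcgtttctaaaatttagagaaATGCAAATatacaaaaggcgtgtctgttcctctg
4931429L15Rik intergenic chr9:46254750-46254949: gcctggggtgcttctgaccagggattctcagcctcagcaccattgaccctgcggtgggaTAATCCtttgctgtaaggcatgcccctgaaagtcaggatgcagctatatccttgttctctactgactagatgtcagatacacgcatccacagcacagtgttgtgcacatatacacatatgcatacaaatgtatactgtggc
Krtdap chr7:31571281-31571480: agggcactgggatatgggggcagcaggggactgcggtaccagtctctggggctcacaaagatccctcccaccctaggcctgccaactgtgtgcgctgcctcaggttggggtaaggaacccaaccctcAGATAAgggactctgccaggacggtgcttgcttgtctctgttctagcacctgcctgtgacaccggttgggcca
Dmrtb1 chr4:107322052-107322251: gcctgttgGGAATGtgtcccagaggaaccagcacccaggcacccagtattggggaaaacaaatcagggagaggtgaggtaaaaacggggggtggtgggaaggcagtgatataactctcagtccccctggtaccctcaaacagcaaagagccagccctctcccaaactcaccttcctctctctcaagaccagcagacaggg
Ptgs1 chr2:36080732-36080931: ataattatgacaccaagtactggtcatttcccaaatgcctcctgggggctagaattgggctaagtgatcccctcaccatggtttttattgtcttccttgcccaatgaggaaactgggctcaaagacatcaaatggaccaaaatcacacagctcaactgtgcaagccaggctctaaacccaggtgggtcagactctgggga
4833442J19Rik chr6:149083771-149083970: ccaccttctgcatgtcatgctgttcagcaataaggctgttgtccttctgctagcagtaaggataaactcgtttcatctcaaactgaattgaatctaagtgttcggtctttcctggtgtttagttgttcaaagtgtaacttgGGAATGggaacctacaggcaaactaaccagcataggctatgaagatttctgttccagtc
Taok3 intron chr5:117585549-117585748: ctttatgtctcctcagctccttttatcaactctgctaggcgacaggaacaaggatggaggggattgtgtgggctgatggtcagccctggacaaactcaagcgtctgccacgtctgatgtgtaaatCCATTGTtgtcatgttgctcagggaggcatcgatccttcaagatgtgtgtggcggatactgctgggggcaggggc
Rybp downstream chr6:100113329-100113528: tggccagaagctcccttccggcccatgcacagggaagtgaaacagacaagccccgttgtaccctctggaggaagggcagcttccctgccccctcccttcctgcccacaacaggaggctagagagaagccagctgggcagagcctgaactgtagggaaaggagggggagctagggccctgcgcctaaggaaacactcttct

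Knockout-only intervals were of moderate strength. Their median fold enrichment over input was 3.95 (range 2.01 to 10.8), against 7.27 for shared and 3.85 for wild-type-only intervals, and their median percentile in the Rybp-/- list was 52.1. Their width had a median of 1001 bp and reached 5265 bp, and together they covered 1513 kb. At the width limit, the 206 knockout-only intervals less than 50 bp above it had a median fold enrichment of 3.68, and the 245 intervals up to 50 bp below it, which it left out, had 3.61. Replicates were merged before the peaks were called, so no interval has a replicate check, and the read depth of the ChIP-seq libraries is unknown.

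Few knockout-only intervals lay directly beside Rybp+/+ acetylation. The nearest Rybp+/+ interval was at a median distance of 6606 bp (quartiles 1475 and 24327 bp), whereas wild-type-only intervals were a median of 1024 bp from the nearest Rybp-/- interval. A Rybp+/+ interval lay within 1 kb of 270 knockout-only intervals (20.6%), and a Rybp-/- interval lay within 1 kb of 664 wild-type-only intervals (49.3%). The summit was within 2.5 kb of an annotated transcription start site (TSS) in 144 knockout-only intervals (11.0%, 95% Wilson interval 9.41 to 12.8), against 38.6% of shared intervals. It was in an intron in 599 (45.7%) and between genes in 479 (36.6%, interval 34.0 to 39.2), whereas wild-type-only summits were in introns in 68.9% and between genes in 12.1% (interval 10.5 to 14.0). Both kinds were thus mostly distal, and the knockout-only ones were more often outside genes. Intervals on shares throughout cover counting error only.

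**Figure D1:**
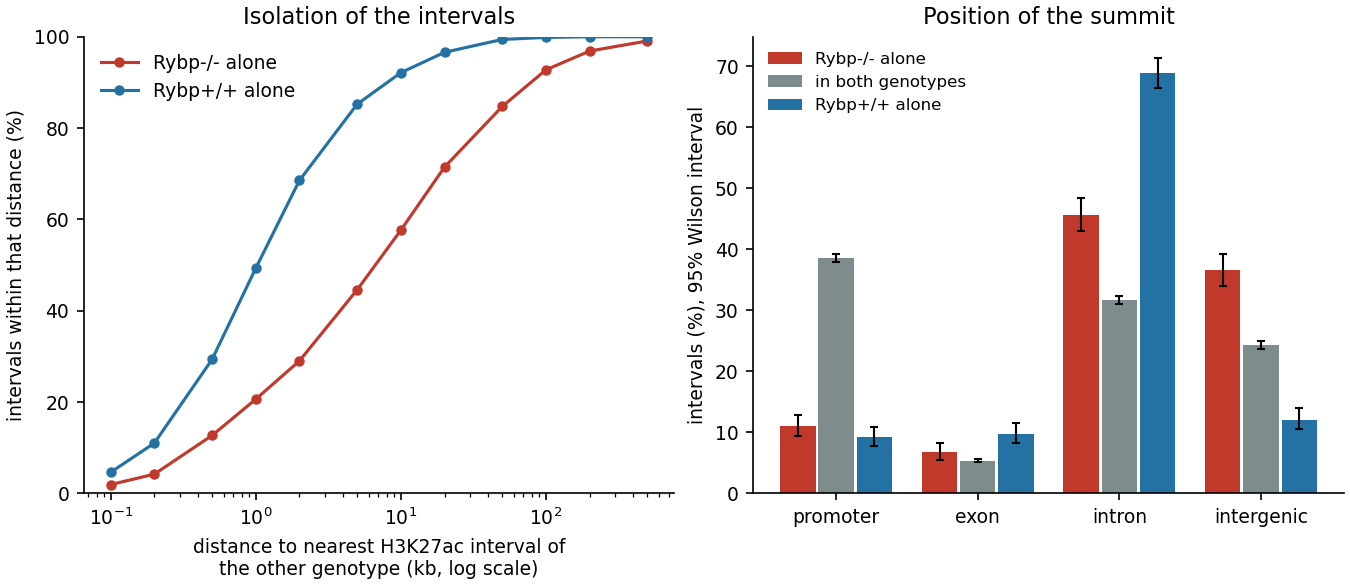
Left, percentage of intervals (vertical axis) whose nearest H3K27ac interval of the other genotype lies within the distance on the horizontal axis (kb, log scale), for 1310 knockout-only (red) and 1347 wild-type-only (blue) intervals. Right, percentage of intervals by the position of the summit with 95% Wilson intervals, shared intervals in grey; 20.6% of knockout-only and 49.3% of wild-type-only intervals had such a neighbour within 1 kb.

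The 10 knockout-only intervals with the highest fold enrichment had values of 8.52 to 10.8, and none held a WDR5 peak in Rybp-/- ESCs. The strongest, chr2:35449490-35452112, lay in an intron of Dab2ip, which encodes a RAS GTPase-activating protein, 35704 bp from its TSS. The second, chr12:109747916-109752541, was in an intron of the microtubule-associated gene Eml1, and its nearest TSS was that of Evl, an actin regulator, at 40389 bp. The third, chr9:46252686-46257858, was intergenic, 124617 bp from the TSS of 4931429L15Rik. Of the 10, 6 had their summit in an intron, 3 were intergenic and 1, at 101 bp from the TSS of Adap2, was in a promoter. An H3K4me3 peak of Rybp-/- ESCs overlapped 3 of the 10, beside Adap2, in an intron of Tmem163 and 248149 bp from Arglu1, and a Rybp+/+ H3K4me3 peak overlapped only the one at Adap2.

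The nearest genes of these strong intervals did not share a direction in Rybp-/- ESCs. RNA counts were tested by edgeR's quasi-likelihood method, with p adjusted over all genes by Benjamini-Hochberg. Taok3, a kinase upstream of MAP kinases, was lower by a log2 fold change of -0.79 ± 0.07 (SE, adjusted p = 1.9e-11). Evl was lower at -0.44 ± 0.06 (adjusted p = 6.7e-07) and Vps26a, a subunit of the endosomal retromer, at -0.26 ± 0.04 (adjusted p = 2.4e-07). Arglu1, an RNA-processing factor, was higher at 0.32 ± 0.04 (adjusted p = 1.4e-07), and Dab2ip at 0.17 ± 0.05 (adjusted p = 0.0031), although without Rybp+/+ replicate 1 Dab2ip was no longer called, with a log2 fold change of 0.11. Sc5d, Adap2 and Tmem163 were not called.

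Most knockout-only intervals stood alone: 1097 (83.7%) had no other within 12.5 kb. The cluster with the most intervals was at the Rybp locus itself, on chromosome 6. Rybp was the nearest protein-coding gene to 16 knockout-only intervals, 14 of them in 1 cluster at chr6:100105440-100159177, and the widest of all 1310 (chr6:100173240-100178504, 5265 bp) ended 55 bp past the annotated 3' end of Rybp. These 16 intervals had fold enrichments of 3.03 to 7.25 and widths of 829 to 5265 bp, and lay 58931 to 158931 bp downstream of the TSS.

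Over the 102 kb from the first to the last of them, called H3K27ac took up 52.2 kb (51.0%) with Rybp deleted and 4.25 kb (4.15%) in the control line. Over the 58.9 kb gene body the order was the opposite, at 21.1 kb (35.8%) of Rybp-/- and 35.7 kb (60.6%) of Rybp+/+ H3K27ac. Upstream of the TSS, the same length was covered to 23.5% and 24.8%, and the peak over the TSS had fold enrichments of 32.7 and 33.0, so neither differed by much between the lists. No WDR5 or STAT3 peak of either genotype lay in the downstream window, and H3K4me3 peaks covered 6.86% of it in Rybp-/- and 5.15% in Rybp+/+ ESCs. An H3K4me3 peak of Rybp-/- ESCs overlapped 3 of the 16 intervals. Within 80 kb past the 3' end, Rybp had 15 knockout-only summits, the next gene in that order, Rbm6, had 6, and 20927 of 22380 protein-coding genes had 0. Rybp RNA, in CPM (read counts scaled to library size), was 110.0 in each Rybp+/+ library and 24.8 and 25.0 in the Rybp-/- libraries, a log2 fold change of -2.15 ± 0.05 (edgeR adjusted p = 8.1e-27). All 16 intervals were over 50 kb from that TSS, so Rybp is not among the genes linked within 50 kb, and it enters only the class from 50 to 100 kb.

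**Figure D2:**
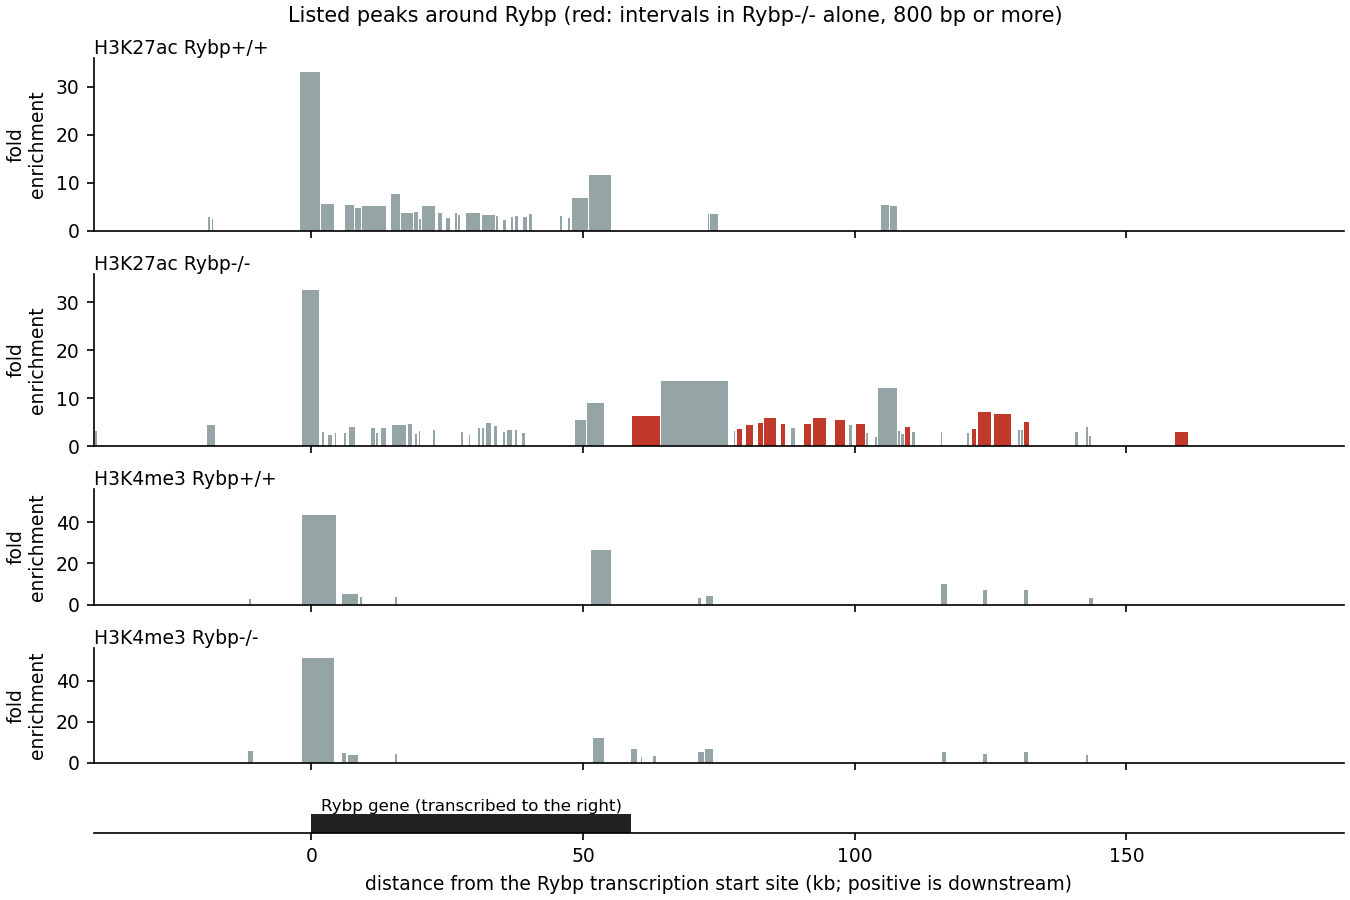
Peaks in the authors' lists around Rybp; horizontal axis, distance from the Rybp TSS in kb (positive is downstream), vertical axes, fold enrichment over input, with knockout-only H3K27ac intervals in red and the gene as a black bar. The 16 red intervals lie past the 3' end, where H3K27ac peaks covered 51.0% of the window in Rybp-/- and 4.15% in Rybp+/+ ESCs.

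Of the smaller clusters, 4 held 4 knockout-only intervals each. The one at chr12:110762004-110785160 lay between the imprinted genes Dlk1, a Notch-ligand-like protein, and Rtl1, and spanned the annotated start of the maternally expressed long non-coding RNA Meg3. Dlk1, Rtl1, Meg3 and the nearby gene Rian were named after their values were seen. The nearest protein-coding TSS was 53380 bp from the cluster, beyond the 50 kb used below to link genes. Dlk1 was at 1.96 and 2.12 CPM in Rybp+/+ and at 6.65 and 5.68 CPM in Rybp-/- ESCs, and rose by a log2 fold change of 1.59 ± 0.15 (edgeR adjusted p = 2.3e-10). Meg3 was at 79.1 and 80.8 CPM in Rybp+/+ and at 64.0 and 66.3 CPM in Rybp-/- ESCs, and fell by 0.30 ± 0.04 on the log2 scale (edgeR adjusted p = 8.2e-07). The groups did not overlap for Dlk1 or Meg3, and Meg3 overlaps 3 other annotated genes. Rtl1 (log2 fold change 0.39 ± 0.38, edgeR adjusted p = 0.44) and Rian (edgeR adjusted p = 0.94) were not called, and both also overlap other annotated genes. Other clusters of 4 were nearest to Smad2, a transducer of TGF-beta and Nodal signals, to the DNA repair nuclease gene Fan1, and to Klhl35 and Gdpd5, and a cluster of 3 began 9491 bp from the TSS of Cebpa. By chromosome, knockout-only intervals made up 8.04% of the wide Rybp-/- intervals on chromosome 12 (72, 95% Wilson interval 6.43 to 10.0), 3.29% on chromosome 10 (40, interval 2.43 to 4.46) and 5.32% in all. On chromosome X it was 3.21% (16, interval 1.98 to 5.14).

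H3K4me3, from libraries the selection did not use, was called more often in the genotype that had the acetylation. A Rybp-/- H3K4me3 peak overlapped 309 knockout-only intervals (23.6%, 95% Wilson interval 21.4 to 26.0) and a Rybp+/+ one 250 (19.1%, interval 17.0 to 21.3). Of these, 71 intervals (5.42%) had H3K4me3 in Rybp-/- ESCs alone and 12 (0.916%) in Rybp+/+ ESCs alone. Wild-type-only intervals gave the opposite order, with 7 (0.52%) and 76 (5.64%), and shared intervals gave 412 (1.77%) and 924 (3.96%). Where both genotypes had an H3K4me3 peak, its fold enrichment was higher in Rybp-/- ESCs at 180 of 238 knockout-only intervals, with a median log2 ratio of 0.28, against -0.02 at 13247 shared and -0.20 at 136 wild-type-only intervals. With 1 list per genotype these differences have no replicate error and were not tested. Besides the input labelled for STAT3, 1 input library is listed per genotype. The H3K27ac, H3K4me3 and WDR5 calls of a genotype may therefore rest on the same input, and its effect was not tested.

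WDR5 was rare at knockout-only intervals. Its Rybp-/- peaks overlapped 56 of them (4.27%, interval 3.31 to 5.51) and its Rybp+/+ peaks 37 (2.82%, interval 2.06 to 3.87), beside 35.0% and 33.2% of shared intervals. WDR5 was called in Rybp-/- ESCs alone at 21 knockout-only intervals and in Rybp+/+ ESCs alone at 2 (1.6% and 0.153%), and shared intervals also leaned to Rybp-/- ESCs, with 798 (3.42%) and 366 (1.57%). Where both genotypes had a WDR5 peak, the fold enrichment was higher in Rybp-/- ESCs at 54.3% of 35 knockout-only and 56.1% of 7366 shared intervals. STAT3 peaks of the 2 genotypes, from 1 library each, overlapped 10 (0.763%) in Rybp-/- and 13 (0.992%) in Rybp+/+ ESCs, beside 3.74% and 4.3% of shared intervals. The far longer list from doxycycline-induced Tet.Rybp.Stat3 R1 ESCs overlapped 222 (16.9%, interval 15.0 to 19.1), 39.6% of shared intervals and 35 wild-type-only intervals (2.6%, interval 1.87 to 3.59). Without doxycycline the list of the same line overlapped 12 knockout-only intervals (0.916%) and 5.86% of shared intervals.

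RING1B, the catalytic Polycomb subunit, was called in R1 ESCs carrying the empty vector at 114 knockout-only intervals (8.7%, interval 7.29 to 10.4), at 25.4% of shared and at 15 wild-type-only intervals (1.11%, interval 0.676 to 1.83). Among shared intervals the shares were higher where the H3K27ac fold enrichment was above 4 than in the class from 3 to 4, so they were also read within classes of it. At a fold enrichment of 3 to 4, RING1B peaks overlapped 8.11% of 493 knockout-only, 6.86% of 2464 shared and 1.53% of 588 wild-type-only intervals. In the same class, Rybp-/- H3K4me3 overlapped 21.1%, 27.1% and 9.52%, WDR5 of Rybp-/- ESCs 4.26%, 5.44% and 0.68%, and doxycycline-induced STAT3 16.8%, 12.2% and 2.89%. The order of knockout-only and shared intervals was not the same in every class. For RING1B the 2 shares were 6.4% and 7.66% below a fold enrichment of 3, 9.09% and 8.84% at 4 to 5, 12.0% and 14.0% at 5 to 6, and 7.14% and 20.9% at 6 to 8. For doxycycline-induced STAT3 they were 14.5% and 12.6% below 3, 16.4% and 16.5% at 4 to 5, 19.4% and 23.3% at 5 to 6, and 18.6% and 32.4% at 6 to 8. Wild-type-only intervals were below both in each of these classes for both factors, at 0% to 1.53% for RING1B and 0% to 2.92% for STAT3. The shares were also read by position. Among summits between genes, RING1B was at 5.01% of knockout-only, 8.11% of shared and 0.613% of wild-type-only intervals, and among promoter summits at 38.2%, 53.4% and 6.45%.

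**Figure D3:**
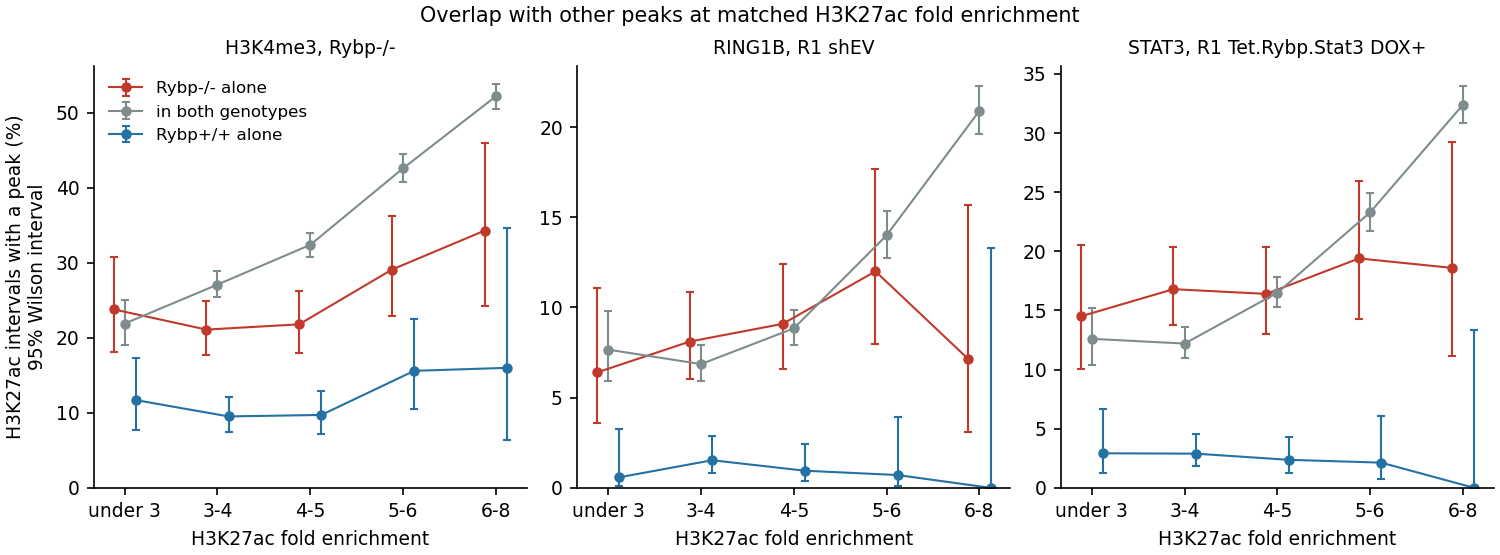
Percentage of H3K27ac intervals that overlap a peak of H3K4me3 (Rybp-/- ESCs), RING1B (R1 shEV ESCs) or STAT3 (R1 Tet.Rybp.Stat3 ESCs with doxycycline), by class of H3K27ac fold enrichment; points are shares, bars 95% Wilson intervals, and classes with under 20 intervals or above 8 are not drawn. At a fold enrichment of 3 to 4 the RING1B share was 8.11% for knockout-only, 6.86% for shared and 1.53% for wild-type-only intervals, and at 6 to 8 it was 7.14%, 20.9% and 0%.

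The sequence under the knockout-only summits was compared over 150 bases on either side. Median GC content was 50.2%, close to the 50.5% of all Rybp-/- intervals, and above the 47.5% of wild-type-only and below the 53.2% of shared intervals. The mean number of CpG dinucleotides was 5.07, against 8.14 over all Rybp-/- intervals. Motifs were searched as fixed letters on both strands. The AP-1 letters TGANTCA, bound by FOS and JUN, occurred in 11.9% of knockout-only windows (interval 10.3 to 13.8) and in 8.19% of all Rybp-/- windows (interval 7.98 to 8.41). The ESRRB letters TCAAGGTCA occurred in 1.68% (interval 1.11 to 2.53) and 0.9% (interval 0.829 to 0.977), and the octamer ATGCAAAT of OCT4 and other POU factors in 1.45% (interval 0.93 to 2.25) and 1.02% (interval 0.942 to 1.1). The octamer is the capital stretch in the Eml1 window shown above.

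The letters AGATAA of GATA factors occurred in 11.9% of knockout-only and 11.8% of all windows, and GGAATG of TEAD factors in 15.6% and 14.7%. The STAT letters TTCNNNGAA occurred in 7.25% and 8.39%, the SOX letters ACAATGG in 4.05% and 3.5%, and the KLF letters GGGTGTGG in 3.66% and 3.31%. TAATCC, bound by OTX2, occurred in 9.54% and 10.6%, the TFCP2L1 motif in 4.96% and 4.51%, and the E-box CACGTG in 3.97% and 4.35%. The forkhead letters TGTTTAC occurred in 2.67% and 3.65%, the cyclic AMP response element TGACGTCA in 0.305% and 0.257%, and the NRF1 motif in 0 of 1310 windows, which allows a share of up to 0.292% (upper Wilson bound). The Krtdap window shown above held the GATA letters, those near Dmrtb1 and 4833442J19Rik the TEAD letters, the Taok3 window the SOX letters and the 4931429L15Rik window the OTX letters. A match to fixed letters is a description and not a measured binding site.

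To relate the intervals to expression, each was linked to the protein-coding gene with the nearest TSS within 50 kb, which 926 of the 1310 (70.7%) had. These were 833 genes, of which 725 passed the filter on low counts. In Rybp-/- against Rybp+/+ ESCs, 274 of the 725 (37.8%) were higher, where 22.8% of all 16955 genes tested were, and 141 (19.4%) were lower, where 22.7% were (edgeR's quasi-likelihood test, Benjamini-Hochberg adjusted p under 0.05). Their median log2 fold change was 0.099, against 0.002 over all genes. Linked genes below 1 CPM, by the mean over the 4 libraries, held none of the falls. With a mean of 1 CPM or more over the 4 libraries, 251 of 632 linked genes (39.7%) were higher and 141 (22.3%) lower, beside 24.9% and 28.6% of 12994 genes in all. Genes nearest to shared intervals were higher in 23.6% and lower in 29.5% of 9324 tested, and genes nearest to wild-type-only intervals were higher in 17.6% and lower in 40.8% of 893. Leaving out the genes that also had a wild-type-only interval left 267 higher and 127 lower of 691. Most linked genes, 603 of the 833, were also nearest to a shared interval, and of the 559 of these tested 36.5% were higher and 22.2% lower. Of the 229 genes with neither a shared nor a wild-type-only interval, 165 were tested, with 42.4% higher and 10.3% lower. In shRybp ESCs the genes that also had a shared interval were higher in 34.2% and lower in 32.4% of 549, and those with neither in 47.6% and 7.14% of 168. A reference for Rybp-/- ESCs is all protein-coding genes with no H3K27ac within 2.5 kb of the TSS in either genotype. Of 3712 tested, 31.2% were higher and 10.4% lower. The 10.3% lower above was thus near the share of that class.

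The share of linked genes that was higher was lower at greater distance. With the interval within 2.5 kb of the TSS, 52 of 109 genes tested (47.7%) were higher and 13 (11.9%) lower, with a median log2 fold change of 0.329. From 2.5 to 10 kb, 80 of 202 (39.6%) were higher and 36 lower, and from 10 to 50 kb 158 of 447 (35.3%) were higher and 95 lower. From 50 to 100 kb, 39 of 151 (25.8%) were higher and 40 (26.5%) lower, Rybp being 1 of the 40. Among genes within 2.5 kb of a wild-type-only interval, 16 of 110 (14.5%) were higher and 40 (36.4%) lower.

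**Figure D4:**
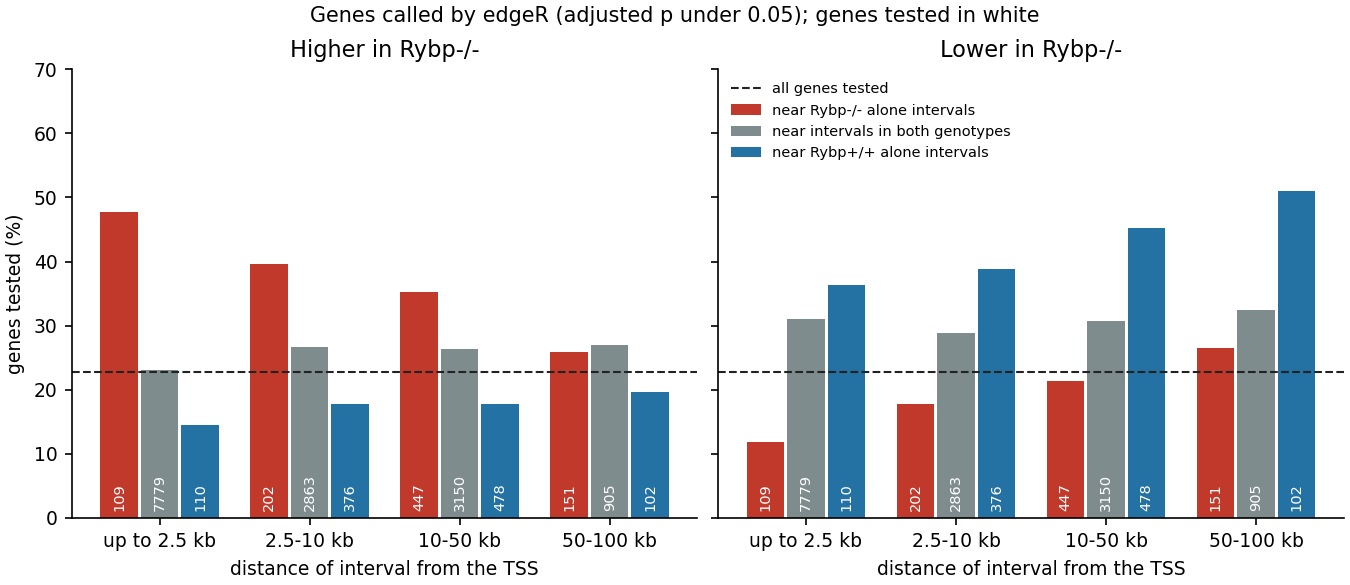
Percentage of tested genes called higher (left) and lower (right) in Rybp-/- ESCs by edgeR, by the distance between interval and TSS, for genes nearest to knockout-only (red), shared (grey) and wild-type-only (blue) intervals; the dashed line is the share over all genes tested and white numbers are genes tested. The share higher near knockout-only intervals was 47.7% within 2.5 kb and 25.8% at 50 to 100 kb.

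In Rybp-/- ESCs the share that was higher did not change steadily with the distance to Rybp+/+ acetylation. Where the nearest Rybp+/+ interval was over 25 kb away, 59 genes tested (49.6%) were higher and 9 (7.56%) lower, whereas with one within 1 kb 73 of 182 (40.1%) were higher and 36 (19.8%) lower. In between it was 36.1% at 1 to 5 kb and 33.3% at 5 to 25 kb, with 23.6% and 19.5% lower. In shRybp ESCs the genes with a Rybp+/+ interval within 1 kb were more often lower (35.2%) than higher (29.0%). There the share higher was greater in each further class, at 35.7% for 1 to 5 kb, 38.6% for 5 to 25 kb and 49.6% beyond. The narrower Rybp-/- intervals that the width limit left out, with the same 25 kb distance, were nearest to 894 tested genes, of which 39.8% were higher and 15.1% lower. At any distance from Rybp+/+ acetylation, the narrower ones were nearest to 5942 tested genes, of which 29.1% were higher and 25.0% lower. In 3 equal classes of H3K27ac fold enrichment, from weak to strong, 39.3%, 36.7% and 38.5% of the genes were higher. Of the linked genes, 133 (16.0%) had H3K27ac within 2.5 kb of their own TSS in Rybp-/- ESCs alone, and 64 of 113 tested (56.6%) were higher and 5 lower. Over all protein-coding genes, 848 (3.79%) were of this kind, with 43.4% higher and 10.9% lower of 725 tested. With H3K27ac there in neither genotype, 36.4% of 118 linked genes tested were higher and 8.47% lower. Over all protein-coding genes of that kind the shares were 31.2% and 10.4% of 3712.

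Few genes were lower where the knockout-only interval held RING1B. Of 82 tested genes nearest to a knockout-only interval with a RING1B peak, 39 (47.6%) were higher and 2 (2.44%) lower, and without RING1B 237 of 651 (36.4%) were higher and 140 (21.5%) lower. Genes nearest to a shared interval with RING1B were higher in 23.7% and lower in 32.8% of 5052 tested. With an H3K4me3 peak of Rybp-/- ESCs, 90 of 197 (45.7%) were higher and 22 (11.2%) lower. Without one the shares were 36.0% and 21.9% of 553, and near shared intervals with one 23.2% and 30.3% of 8585. For WDR5 of Rybp-/- ESCs the share higher was 38.3% of 47 with a peak and 37.7% of 679 without, and the share lower 10.6% and 20.2%. In shRybp ESCs the genes with a WDR5 peak on the interval were higher in 63.8% and lower in 8.51% of 47, and those without in 35.6% and 27.7% of 672. With H3K4me3 in Rybp-/- ESCs alone, 40.0% of 35 were higher and 17.1% lower. With a doxycycline-induced STAT3 peak, 77 of 146 (52.7%) were higher and 9 (6.16%) lower. Without one the shares were 34.7% and 22.2% of 599, and near shared intervals with one 23.4% and 31.7% of 7022. Over all protein-coding genes with a RING1B peak within 2.5 kb of the TSS, 25.9% were higher and 26.9% lower of 8740 tested. The differences between these counts were not tested, since a gene can have several intervals and genes share regulators.

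The counts were also taken within classes of the mean level over all 4 libraries. The linked genes had a median of 19.1 CPM in Rybp+/+ ESCs, against 17.0 CPM over all protein-coding genes tested, 37.2 CPM near shared and 82.4 CPM near wild-type-only intervals. Below 1 CPM, 23 of 93 linked genes (24.7%) were higher and 0 lower, where 22.0% and 3.13% of all protein-coding genes of that level were. From 1 to 10 CPM, 50.8% of 187 were higher and 8.56% lower, beside 30.6% and 15.2%. From 10 to 50 CPM the shares were 36.2% and 23.3% of 210, beside 23.4% and 32.4%, and at 50 CPM or more 34.0% and 32.3% of 235, beside 23.4% and 37.2%. The share that was higher exceeded that of all protein-coding genes in the 4 classes, by the least below 1 CPM, and the share that was lower was below it in each. Among genes of 1 CPM or more, the shares with the interval within 2.5 kb were 51.1% higher and 14.1% lower of 92, with RING1B on the interval 52.9% and 2.94% of 68, and with doxycycline-induced STAT3 58.3% and 7.5% of 120.

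The second depletion was read for the same genes. Rybp RNA was 85.7 and 86.4 CPM in shEV and 35.8 and 36.6 CPM in shRybp ESCs. Of 718 linked genes tested there, 268 (37.3%) were higher in shRybp ESCs, where 26.8% of all 16538 genes were, and 190 (26.5%) were lower, where 26.0% were. Within 2.5 kb of the TSS, 57 of 110 (51.8%) were higher and 13 (11.8%) lower. Beyond that the share higher did not fall with distance in shRybp ESCs, at 35.2%, 36.0% and 35.6% in the next 3 classes. With a RING1B peak on the interval, 53 of 84 (63.1%) were higher and 4 (4.76%) lower. Over all protein-coding genes with a RING1B peak within 2.5 kb of the TSS, 34.3% were higher and 26.5% lower of 8707. Near shared intervals with RING1B the shares were 28.3% and 36.0% of 5046. Of the linked genes called in both depletions, 149 were higher and 62 lower in both, 46 were higher in Rybp-/- and lower in shRybp ESCs, and 27 the reverse. Both higher were thus 52.5% and both lower 21.8% of the 284 linked genes called in both, beside 35.9% and 32.3% of 4748 over all genes, and opposite calls were 16.2% and 9.51%, beside 16.4% and 15.4%. The difference between these shares was not tested.

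The 12 linked genes with the largest rises, among those of at least 1 CPM on average, were at 0 to 1.88 CPM in Rybp+/+ ESCs, and in 11 of them the shRybp libraries were also higher by edgeR. Gm4840, a predicted gene, had 6 and 0 reads in Rybp+/+ and 315 and 289 in Rybp-/- ESCs, so its fitted fold change depends on the fit's prior count and is not given. Krtdap, a secreted protein of differentiating keratinocytes, was at 0.305 and 0.36 CPM in Rybp+/+ and at 3.6 and 3.22 CPM in Rybp-/- ESCs, a log2 fold change of 3.35 ± 0.26 (edgeR adjusted p = 1.3e-12). Its interval, chr7:31571180-31572018, lay 906 bp from the TSS and 405 bp from a Rybp+/+ interval. In neither gene did the 2 groups overlap.

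Of the other rises, Dmrtb1, a transcription factor of the male germ line, went from 1.76 and 1.32 CPM to 7.58 and 8.02 CPM (log2 fold change 2.34 ± 0.15, edgeR adjusted p = 2.4e-14). Its interval was 34280 bp away and 669 bp from a Rybp+/+ interval. Ptgs1, the prostaglandin-forming enzyme COX-1, went from 0.573 and 0.572 CPM to 2.47 and 2.26 CPM (2.04 ± 0.26, edgeR adjusted p = 8.3e-08), and it was the gene of the 12 that was not called in shRybp ESCs (edgeR adjusted p = 0.71). Cebpa, a transcription factor of myeloid, liver and fat cells, went from 1.64 and 1.88 CPM to 5.09 and 5.51 CPM (1.59 ± 0.16, edgeR adjusted p = 1.0e-09) with 3 intervals, the nearest TSS distance of the strongest being 14441 bp. In all 3 genes every Rybp-/- library was above every Rybp+/+ library.

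Rab17, a small GTPase of polarized epithelial cells, Wisp1, a secreted matricellular protein of the Wnt response, and Sct, the hormone secretin, had a knockout-only interval over the TSS itself. Rab17 went from 0.98 and 0.994 CPM to 3.04 and 3.53 CPM, and Wisp1 from 0.763 and 1.17 CPM to 3.77 and 2.61 CPM. Sct went from 0.509 and 0.522 CPM to 1.31 and 1.71 CPM, and its interval held H3K4me3, WDR5 and RING1B peaks. At Wisp1 an H3K4me3 peak was called in Rybp-/- ESCs alone. The RAB5 exchange factor gene Rin3, the mitochondrial carrier gene Slc25a48, 6030419C18Rik and Runx3, a transcription factor of T cells and sensory neurons, completed the 12, with log2 fold changes of 1.92, 1.81, 1.55 and 1.54.

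**Figure D5:**
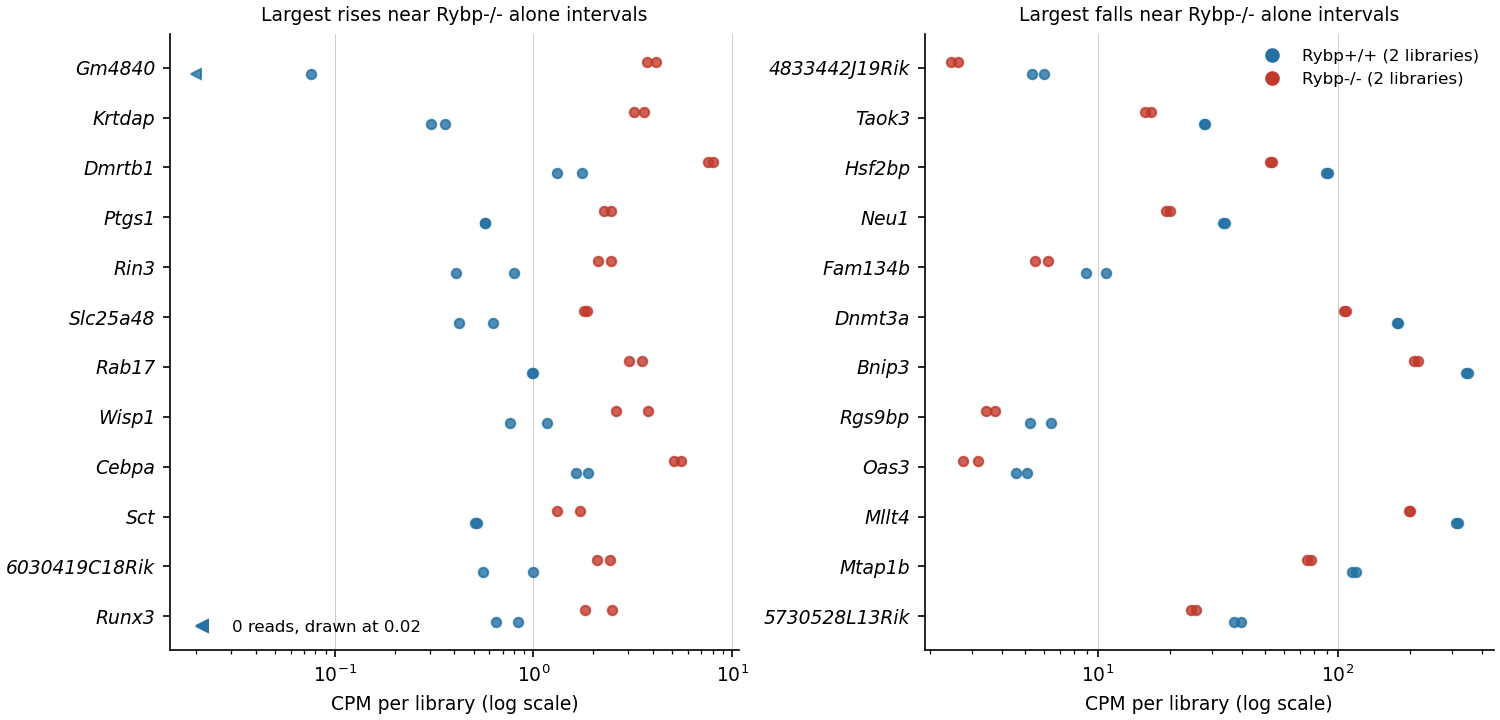
Level of each named gene in every library (CPM, log scale), with Rybp+/+ libraries in blue and Rybp-/- libraries in red; left, the 12 largest rises and right, the 12 largest falls among genes linked to knockout-only intervals. The rises start from 0 to 1.88 CPM, and the falls include Bnip3 at 343 and 349 CPM in Rybp+/+ ESCs.

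The 12 largest falls were shallower, from -1.16 to -0.61 on the log2 scale. Dnmt3a, which sets DNA methylation de novo, was at 178 and 177 CPM in Rybp+/+ and at 106 and 108 CPM in Rybp-/- ESCs, a log2 fold change of -0.73 ± 0.04 (edgeR adjusted p = 1.5e-17). Its interval lay 25737 bp from the TSS and 46 bp from a Rybp+/+ interval. Bnip3, a mitophagy receptor induced by hypoxia, was at 343 and 349 CPM and at 209 and 216 CPM (-0.70 ± 0.03, edgeR adjusted p = 2.1e-18). Taok3 was at 28.1 and 27.8 CPM and at 15.7 and 16.7 CPM, with the interval of 9.49-fold enrichment in its intron. No library of one genotype overlapped the other in these genes.

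The gene 4833442J19Rik fell most (-1.16 ± 0.15, edgeR adjusted p = 8.3e-08), from 5.34 and 5.98 CPM to 2.63 and 2.44 CPM. Hsf2bp, a meiotic recombination factor, the lysosomal sialidase Neu1 and the receptor for endoplasmic reticulum turnover Fam134b fell by 0.78, 0.78 and 0.76 on the log2 scale. The intervals of Neu1 and Fam134b lay 273 and 441 bp from a Rybp+/+ interval, and that of Hsf2bp 29714 bp. Rgs9bp, an anchor of the photoreceptor protein RGS9, and Oas3, an antiviral oligoadenylate synthetase, both fell by 0.70, and the junction protein gene Mllt4 (afadin), the microtubule-associated Mtap1b and 5730528L13Rik by 0.66, 0.62 and 0.61. In shRybp ESCs 5 of the 12 were also lower, 4 were not called and 3 were higher by edgeR. Of the 24 named genes, 6 overlap another annotated gene (Runx3, 4833442J19Rik, Taok3, Hsf2bp, Dnmt3a and Mllt4), and the strand setting of the counting is not given in the sources used here.

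Of the 268 genes of the lineage and pathway lists, 16 (5.97%) were linked to a knockout-only interval, beside 3.72% of all protein-coding genes, and 10 of 21 lists had no linked gene. Of the 16, 10 were higher, 4 lower and 2 not called in Rybp-/- ESCs, where 118 of the 245 list genes tested were higher and 56 lower. Without Rybp-/- replicate 2, 6 of the 16 were called higher, with Esrrb, Mesp2, Mll2 and Stat3 no longer called, and without Rybp-/- replicate 1, 8 were, with Esrrb and Stat3 no longer called. Among the mesoderm genes, Mesp2, a somite transcription factor, went from 0.916 and 1.07 CPM to 1.51 and 2.51 CPM (edgeR adjusted p = 0.0019), but without Rybp-/- replicate 2 it was not called, with a log2 fold change of 0.60. The ligand gene Wnt3a went from 5 and 30 reads to 58 and 102 reads, a log2 fold change of 2.24 that was 1.48 without Rybp+/+ replicate 1 and 4.0 without Rybp+/+ replicate 2. It was not called by DESeq2, and T, also linked, was not called (edgeR adjusted p = 0.050). The 3 linked imprinted genes were higher, where 9 of 19 tested in that list were higher and 5 lower. Igf2, a fetal growth factor, went from 12.5 and 13.8 CPM to 20.8 and 23.4 CPM (0.75 ± 0.08, edgeR adjusted p = 1.3e-09). Its clearance receptor gene Igf2r went from 160 and 159 CPM to 250 and 257 CPM (0.67 ± 0.03, edgeR adjusted p = 2.4e-17), and Phlda2, which restrains placental growth, from 64.3 and 69.3 CPM to 90.2 and 91.1 CPM. In shRybp ESCs Phlda2 was lower, at -1.19 on the log2 scale. The Igf2r and Phlda2 intervals lay 717 and 245 bp from a Rybp+/+ interval, and that of Igf2 46377 bp.

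Among the BMP genes, Id3, a BMP-induced inhibitor of basic helix-loop-helix factors, was at 30.9 and 31.9 CPM in Rybp+/+ and 83.5 and 83.0 CPM in Rybp-/- ESCs (log2 fold change 1.41 ± 0.05, edgeR adjusted p = 8.3e-22). The Wnt effector gene Tcf7 fell from 99.9 and 101 CPM to 71.6 and 65.3 CPM (-0.55 ± 0.04, edgeR adjusted p = 2.4e-12), and the LIF receptor gene Lifr from 55.4 and 54.5 CPM to 49.0 and 47.1 CPM (-0.19 ± 0.05, edgeR adjusted p = 0.0012). Tagln, an actin-binding protein of smooth muscle, went from 16.5 and 19.1 CPM to 28.3 and 29.3 CPM, with its interval over the TSS. The linked naive pluripotency gene was Esrrb, at 1050 and 1080 CPM and at 1130 in both Rybp-/- libraries, a log2 fold change of 0.09 that was not called when either Rybp-/- library was left out. No gene of the Polycomb, Hox, germ-line, neural, trophectoderm, primitive endoderm, 2-cell-like, YAP target or extracellular matrix lists was linked. Of the 16 linked list genes, 6 overlap another annotated gene: Stat3 (Stat5a), Tcf7 (Gm16953 and A630014C17Rik), Tagln (Pcsk7), Igf2 (Mir483 and Igf2as), Igf2r (Airn) and Dnmt3a. Without the strand setting, reads of such pairs cannot be assigned with certainty.

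The libraries had 75496499 to 81049618 counts on genes for the 2 genotypes and 38961268 to 52303725 for the hairpins, and the labels do not say that replicates were separate cultures, so the p-values measure the spread between these libraries. ESC markers were abundant in both genotypes, with a summed level of 4930 to 5080 CPM for 8 genes in Rybp+/+ and 5280 to 5320 CPM in Rybp-/- ESCs. Fibroblast markers were low and moved with the genotype: 8 genes summed to 61.3 to 62.0 CPM in Rybp+/+ and 125 to 130 CPM in Rybp-/- ESCs, 7 of the 8 were called higher, Lum was not, and none was at 0 in all libraries. None of the 8 had a knockout-only interval nearest to it, and their part in the changes of the linked genes was not tested. Fewer cells of a type and less RNA per cell cannot be told apart in these bulk samples.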

How the data were processed

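The authors trimmed reads with Trim Galore and aligned them to mm9, ChIP-seq with Bowtie2 and RNA-seq with STAR, counted RNA reads per gene with HTSeq, and called peaks with MACS on merged replicates (STAT3 of each genotype and RING1B of shEV and shStat3 from 1 library). The deposited peak lists give a fold enrichment ratio over input and a −log10 q-value; although the methods state a false discovery rate of 0.01, 19 knockout-only intervals had a −log10 q under 2. The deposited RNA tables give raw counts. Of 37620 gene IDs, 37205 matched GENCODE M1 (NCBIM37, the mm9 assembly).

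Knockout-only intervals were found with Python 3.11.15 on unique intervals. Shares have 95% Wilson intervals. Counts were tested with edgeR 4.0.16 (TMM, filterByExpr, quasi-likelihood test, Benjamini-Hochberg over all genes tested), separately per table, after a check on simulated data; unassigned reads were 13.7% to 23.8% of a library and left out. Named regions were the 10 with the highest fold enrichment and the 5 widest; named genes were the 12 largest rises and falls among linked genes of at least 1 CPM, and linked genes of 21 lists. Regions, genes and lists were chosen with earlier results of these data known. The 20 columns of 5 other count tables were not used.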

Additional observations from a re-analysis of the deposited data

Results flagged for a closer look

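In 7 named genes all libraries of Rybp-/- ESCs lay on one side of their Rybp+/+ controls and all shRybp libraries on the other side of shEV; the difference between the depletions was not tested. Taok3, Fam134b and Rgs9bp, lower in Rybp-/- ESCs, had log2 fold changes of 0.52, 1.31 and 0.63 in shRybp against shEV R1 ESCs. Tcf7, also lower in Rybp-/- ESCs, was at 0.16, a value that was not called under 5 of 8 alternatives. Esrrb, Phlda2 and Arglu1, higher in Rybp-/- ESCs, were at -0.42, -1.19 and -0.38. The cell line, the means of depletion and the library depth differ between the tables and cannot be told apart.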

How the results depend on the processing

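There were 2939 intervals at a minimum of 600 bp, 659 at 1000 bp and 726 with no Rybp+/+ interval within 5 kb. In Rybp-/- ESCs, 128 linked genes were higher and 49 lower (72.3% of called genes higher) with the TSS within 10 kb, 52 and 13 (80%) within 2.5 kb, 513 and 352 (59.3%) with every TSS within 50 kb, and 144 and 70 with intervals of 1000 bp or more. An absolute log2 fold change above 1 left 1119 genes higher and 211 lower, of them 68 and 1 linked (98.6%), and in shRybp ESCs 1886 and 202, of them 118 and 7 linked (94.4%).

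Requiring at least 50% of the interval to be overlapped gave 15.0% with Rybp-/- and 13.0% with Rybp+/+ H3K4me3, 1.83% and 1.37% with WDR5, 0.153% with STAT3 of either genotype and 6.56% with RING1B. Requiring the summit in the peak gave 16.9% and 14.0% with H3K4me3, 2.44% and 1.45% with WDR5, 0.305% with Rybp-/- STAT3 and 6.64% with RING1B. Intervals of 1000 bp or more gave 15.9% with Rybp+/+ H3K4me3 and 6.22% with RING1B, and those with no Rybp+/+ interval within 1 kb gave 10.4% with RING1B.

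Over 49 single genes, 750 of 776 alternatives kept direction and call, 18 lost and 5 gained a call, and 3 reversed. With 1 library left out, Ier3 ranged from -0.08 (without Rybp-/- replicate 1) to 0.21 on the log2 scale, and in shRybp ESCs Mll2 from -0.06 to 0.04 and Spry1 from -0.09 to 0.19; none of these was called. The cause was not tested. A replicate block gave 3874 genes higher and 3850 lower, of them 274 and 139 linked, and 4627 and 4483 in shRybp ESCs; deviations of same-numbered libraries correlated at -0.0214 and 0.0209, so the numbers do not pair the libraries. The alternatives for shRybp, those without the intervals near Rybp and the limit of 1 CPM on the mean level were chosen after seeing the data. With 2 libraries a group and 1 merged peak list per genotype, small RNA changes and single intervals are the least certain.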
